A study of Mus musculus with 16 samples.

Results

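To examine how the liver transcribes the machinery that admits pyruvate to mitochondria and commits it to oxidation or to glucose synthesis, 10 genes were followed in the livers of mice fed or fasted on 2 diets. The genes are Mpc1 and Mpc2 (the mitochondrial pyruvate carrier), Pdha1, Pdhb and Dlat (catalytic subunits of the pyruvate dehydrogenase complex), Pdk1, Pdk2 and Pdk4 (kinases that inactivate the complex), Pdp2 (a phosphatase that reactivates it) and Pcx (pyruvate carboxylase). They were chosen by name, each matched exactly 1 row of a table of 46078 genes, and all 10 were among the 15075 genes with enough counts to be tested. Male mice labelled C56B6/J (C57BL6/J in the study's methods) received 1 of 2 diets from 8 weeks of age, the control diet (CD) or the high-fat diet (HFD, 60% of calories from fat), and kept it for 16 weeks. Livers were removed either from mice with free access to food or after 16 h without food. This gave the groups CD fed, CD fast, HFD fed and HFD fast, with 4 libraries each and no transgene or drug in any group.

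Pyruvate made from glucose, lactate or alanine crosses the inner mitochondrial membrane through a carrier built of MPC1 and MPC2. Inside, the pyruvate dehydrogenase complex converts it irreversibly to acetyl-CoA: PDHA1 and PDHB form the decarboxylase (E1), DLAT is the lipoyl-bearing acetyltransferase core (E2), and DLD, held by the binding protein PDHX, regenerates the lipoyl arm. Kinases of the PDK family phosphorylate PDHA1 and shut the complex, whereas the phosphatases PDP1 and PDP2 reopen it. Pyruvate carboxylase takes pyruvate to oxaloacetate instead, the first step of gluconeogenesis from lactate and alanine. The gate is known above all for its control by phosphorylation, and Pdk4 is known in many tissues as a gene raised by fasting. RNA levels do not measure phosphorylation, protein or flux.

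RNA was measured as counts of reads or read pairs per gene, given here as CPM, the rate at which a gene is counted in its library after TMM scaling (trimmed mean of M-values, a factor that aligns most genes between libraries). Totals ranged from 41364448 to 57583153 counts, and the 4 CD fed libraries (55415835 counts or more) were deeper than the other 12 (53982285 or fewer). A count of 3, taken as the detection floor, came to at most 0.0767 CPM. Markers of hepatocytes summed to between 71709 and 138791 CPM, while 5 of 6 skeletal muscle genes were at or under the floor in every library. In bulk liver, fewer cells of a type and less RNA per cell cannot be told apart. Each library is taken as 1 mouse, but the labels state only separate samples, so p-values measure the spread between these samples.

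Fasting lowered 2 subunits of the dehydrogenase complex and raised pyruvate carboxylase and the carrier subunit Mpc1 on both diets. On CD, 6 of the 10 genes passed an adjusted p of 0.05 (edgeR's quasi-likelihood test with Benjamini-Hochberg adjustment over all genes tested): Mpc1, Mpc2 and Pcx rose, and Pdhb, Dlat and Pdk1 fell. In that comparison 25.2% of all genes tested were called, 13.7% higher and 11.5% lower. On HFD, 4 of the 10 were called, with Mpc1 and Pcx higher and Pdhb and Dlat lower, against 8.86% of all genes (4.78% higher and 4.07% lower). The libraries of the fed and fasted groups did not overlap for 5 members on CD and for 4 on HFD, where 25.4% and 16.7% of all genes were separated in this way. The comparison on HFD shares no library with that on CD.

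Diet gave fewer calls than fasting among the 10 genes, as it did among all genes, and the sizes of the changes were not compared by a test. In fed mice none of the 10 differed between HFD and CD by edgeR, although 4 (Pdk1, Dlat, Mpc1 and Mpc2) had an unadjusted p under 0.05, as did 22.9% of all genes. DESeq2 called 1 and limma-voom 0, and 7.50% of all genes were called. In fasted mice 1 of the 10, Mpc2, was lower on HFD, against 7.70% of all genes called and 4.65% called lower. The diets were separated without overlap for 0 members when fed and for 1 when fasted, and for 15.7% and 14.0% of all genes. Mpc2 was also the only member whose response to fasting differed between diets in the test of that difference, where 2.59% of all genes were called.

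**Figure D1:**
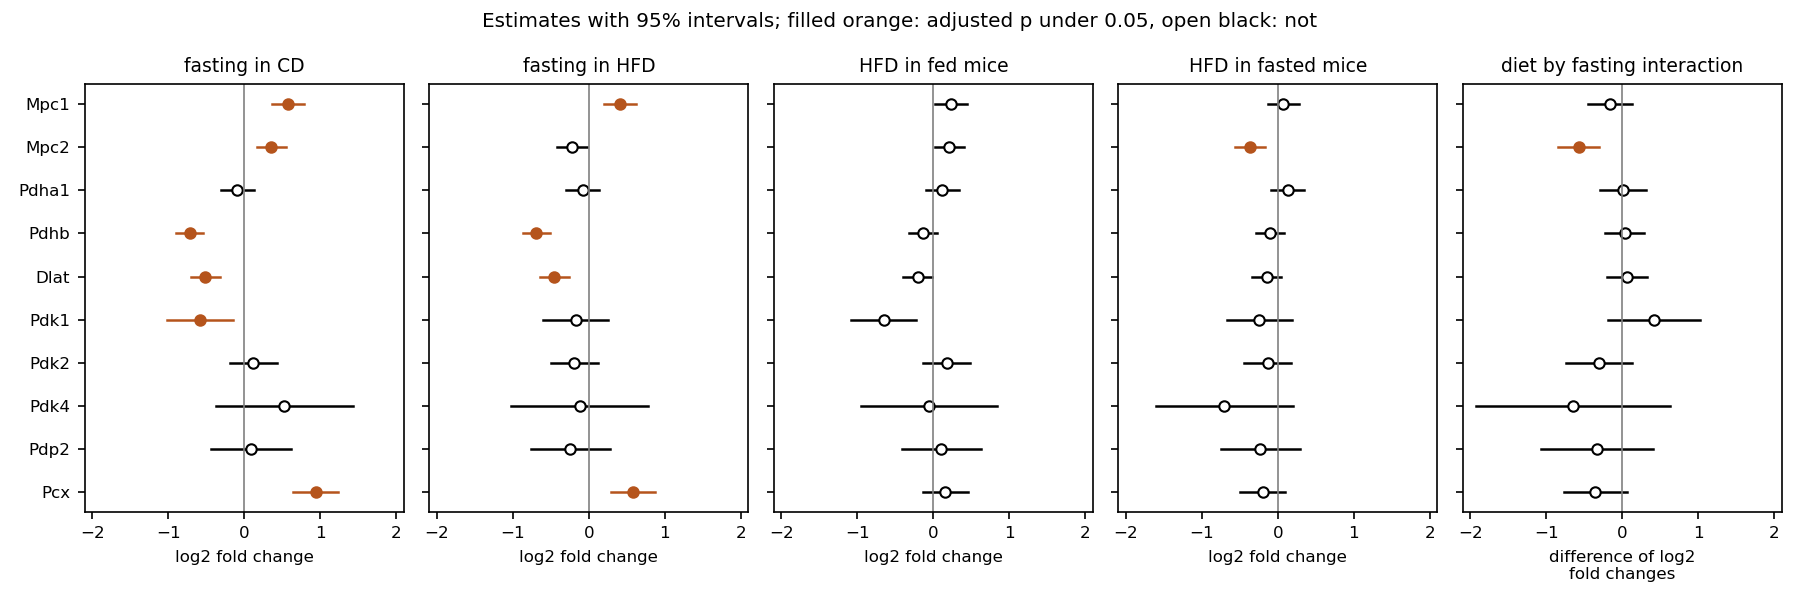
Estimates for the 10 genes (rows) in the 4 pairwise comparisons and in the diet by fasting interaction (panels). The horizontal axis is the log2 fold change, or for the interaction the difference of log2 fold changes, with 95% intervals, and filled orange points passed an adjusted p of 0.05. Pdhb and Dlat lie left of 0 and Mpc1 and Pcx right of 0 in both fasting panels, and Mpc2 is the filled point in the last 2 panels. The intervals of Pdk4 are the widest in every panel.

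Fasting raised both carrier subunits on CD, and only Mpc1 was called on HFD. Mpc1 (chr17:8282904-8297661, plus strand, all positions on GRCm38) was measured at 128, 144, 151 and 127 CPM in CD fed livers and at 232, 198, 197 and 192 CPM in CD fast livers. On HFD its level was 156, 142, 177 and 171 CPM in fed and 205, 248, 201 and 206 CPM in fasted livers. All fasted libraries lay above all fed libraries of the same diet, and each diet had 1 fasted library standing above the other 3. Fasting raised Mpc1 by 0.57 on the log2 scale on CD (SE 0.10, adjusted p = 7.01e-04), a fold of 1.49 with a 95% interval of 1.29 to 1.72. On HFD the rise was 0.41 (SE 0.10, adjusted p = 0.0180). The latter call was lost without HFD fast replicate 2 (adjusted p = 0.0503), HFD fed replicate 1 (0.0623) or HFD fed replicate 2 (0.0557). Exons of Mpc1 share 480 bases with those of the antisense gene 4930506C21Rik, which averaged 32.3 counts against 8568 for Mpc1, and the strand setting of the counting, as opposed to that of the alignment (fr-firststrand), is not given in the sources used here.

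Mpc2 (chr1:165460637-165481214, plus strand), the partner without which the carrier does not form, followed Mpc1 on CD only. Its level was 118, 123, 127 and 108 CPM in CD fed livers and 152, 154, 157 and 146 CPM after fasting, again with no overlap. On HFD it stood at 137, 148, 152 and 113 CPM in fed and 122, 129, 116 and 105 CPM in fasted livers, so that the lowest fed library lay within the fasted range. Fasting raised Mpc2 by 0.35 on CD (SE 0.09, adjusted p = 0.0107), and the estimate on HFD was -0.22 (SE 0.09, adjusted p = 0.138), called lower only when HFD fed replicate 4 was left out (0.0318). The difference between these responses was -0.58 on the log2 scale (SE 0.13, 95% interval -0.85 to -0.30, adjusted p = 0.0296). Between fasted groups, HFD livers had 0.37 less on the log2 scale than CD livers (estimate -0.37, SE 0.09, adjusted p = 0.0249), a fold of 0.776 with an interval of 0.678 to 0.887. The interaction kept its sign in all 24 alternatives, with estimates from -0.66 to -0.49, and lost its call in 9 of the 16 that left out a library, with adjusted p up to 0.0678. The lower level in fasted HFD livers lost its call in 7 of 25 alternatives, among them total count scaling (adjusted p = 0.0826) and a fit of only the groups compared (0.0648).

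**Figure D2:**
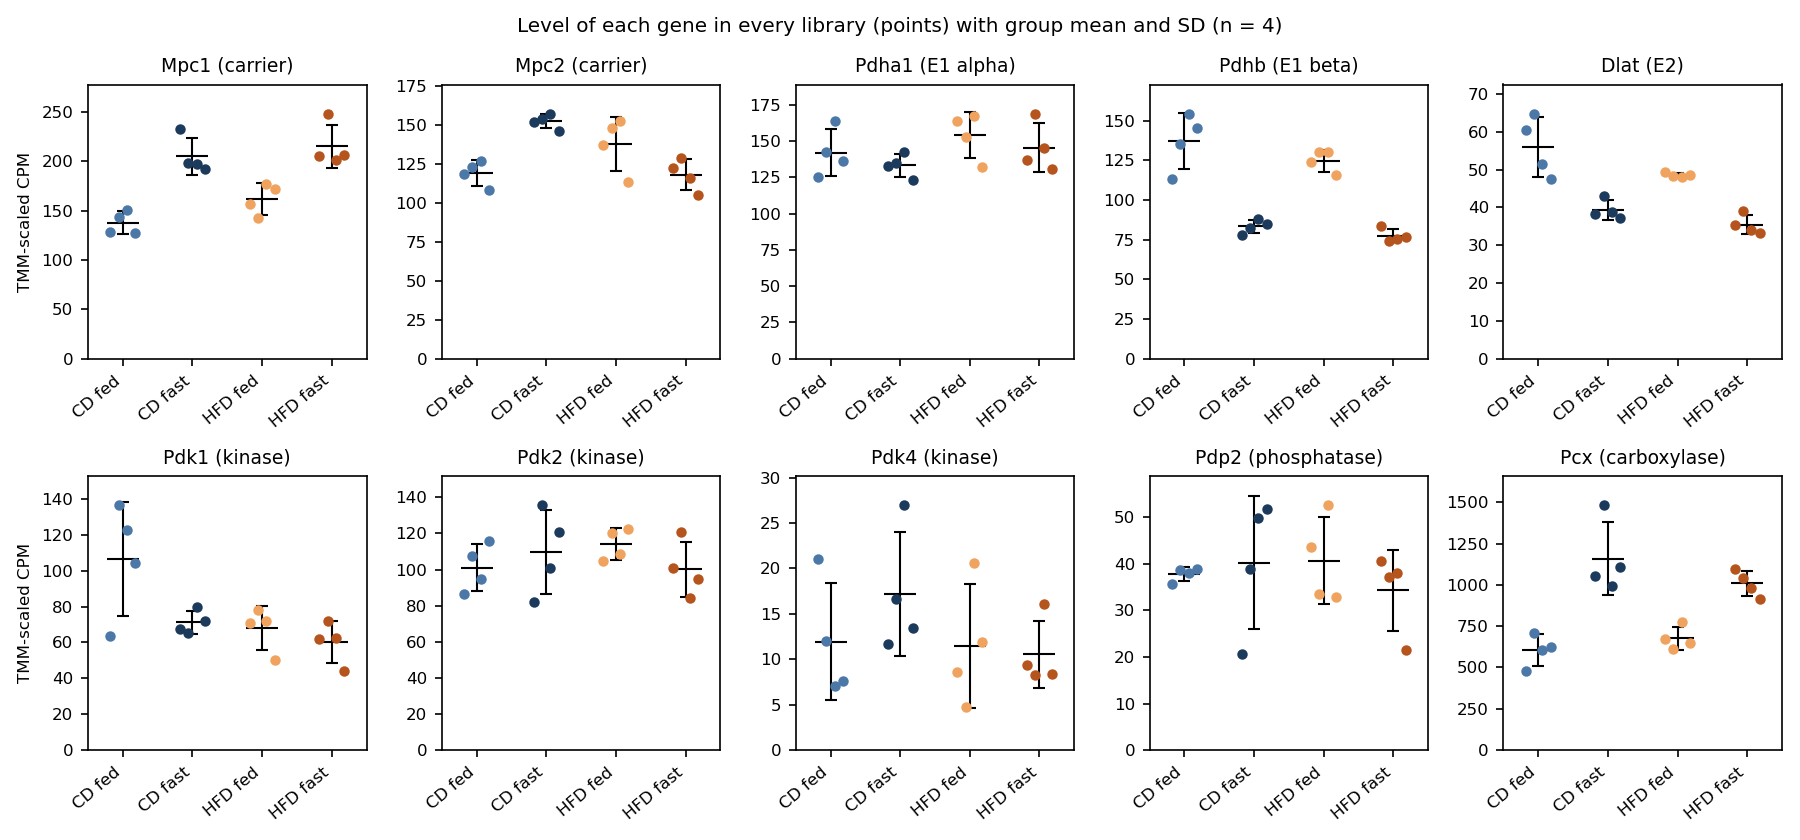
Level of each of the 10 genes in CPM (vertical axis, from 0) in the 4 groups, with 1 point per library, in the order of replicate numbers, and the group mean with its SD (n = 4). The fed and fasted libraries of both diets form separate bands for Pdhb, Dlat, Mpc1 and Pcx. By contrast, the points of Pdk4, and those of Pdp2 in groups other than CD fed, spread within groups as far as between them.

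Pyruvate carboxylase had the highest CPM of the 10 genes, a scale not corrected for transcript length, and rose with fasting on both diets. Pcx (chr19:4510472-4621752, plus strand) was present at 481, 711, 603 and 627 CPM in CD fed and 1053, 1482, 994 and 1107 CPM in CD fast livers. On HFD the corresponding levels were 673, 610, 774 and 647 CPM and 1094, 1044, 982 and 918 CPM. No fed library of either diet reached any fasted library. The rise was 0.94 on the log2 scale on CD (SE 0.14, adjusted p = 2.50e-04), a fold of 1.91 with an interval of 1.56 to 2.35, and 0.58 on HFD (SE 0.14, adjusted p = 0.0190), a fold of 1.49 with an interval of 1.22 to 1.83. The responses were not shown to differ, with a difference of -0.36 (95% interval -0.77 to 0.06, adjusted p = 0.315). The call on HFD was lost without HFD fast replicate 1 (adjusted p = 0.0553), HFD fed replicate 1 (0.0585) or HFD fed replicate 2 (0.0557). Diet gave estimates of 0.16 in fed and -0.20 in fasted mice, neither of them called.

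Within the complex, the beta subunit of E1 and the E2 core fell with fasting, and the alpha subunit of E1 was not called in any comparison. Pdhb (chr14:8165996-8173025, minus strand) encodes the E1 beta chain. It was measured at 113, 136, 154 and 145 CPM in CD fed livers and at 78.1, 82.1, 87.8 and 85.1 CPM in CD fast livers. The HFD livers gave 124, 130, 130 and 116 CPM when fed and 83.4, 74.2, 75.2 and 76.6 CPM when fasted. Every fasted library of either diet was below every fed library. Pdhb fell by 0.72 on the log2 scale on CD (SE 0.09, adjusted p = 4.47e-05) and by 0.69 on HFD (SE 0.09, adjusted p = 4.19e-04), folds of 0.608 (95% interval 0.536 to 0.689) and 0.620 (0.547 to 0.703). Both calls held in all 25 alternatives, with adjusted p up to 0.00123 and 0.00245. The difference between diets in this response was 0.03 (interval -0.23 to 0.28), and the estimates for HFD were -0.14 in fed and -0.11 in fasted mice, neither called.

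Dlat (chr9:50634633-50659780, minus strand) encodes the acetyltransferase that forms the core of the complex. It ran at 60.5, 64.8, 51.5 and 47.4 CPM in CD fed livers and 38.2, 43.0, 38.8 and 37.2 CPM in CD fast livers. In HFD livers the levels were 49.3, 48.4, 48.0 and 48.6 CPM fed and 35.3, 39.2, 34.1 and 33.3 CPM fasted. As with Pdhb, the fed and fasted libraries did not overlap on either diet, and the 4 HFD fed libraries were nearly equal. Fasting lowered Dlat by 0.51 on CD (log2 fold change -0.51, SE 0.09, adjusted p = 8.37e-04) and by 0.45 on HFD (-0.45, SE 0.09, adjusted p = 0.00705), and both calls held in all 25 alternatives. In fed mice the estimate for HFD was -0.21 (unadjusted p = 0.0327 from edgeR, adjusted p = 0.172).

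Pdha1 (chrX:160122209-160138413, minus strand) encodes the E1 alpha chain, which carries the serines that the kinases phosphorylate. Its level was 125, 143, 164 and 137 CPM in CD fed, 133, 135, 143 and 123 CPM in CD fast, 164, 153, 168 and 132 CPM in HFD fed and 137, 169, 145 and 131 CPM in HFD fast livers. All 4 groups overlapped. The response to fasting was -0.09 on the log2 scale on CD (95% interval -0.31 to 0.12, adjusted p = 0.541) and -0.08 on HFD (-0.30 to 0.13, adjusted p = 0.651). The intervals for fasting thus reach folds of 0.808 on CD and 0.814 on HFD at their lower ends, above the estimates for Pdhb. A call was made in 1 alternative only, for HFD in fasted mice under total count scaling (adjusted p = 0.0489). Exons of Pdha1 share 603 bases with those of Map3k15 on the other strand, a gene with a mean of 147.4 counts against 6928 for Pdha1.

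The 3 kinase genes did not move as a group. Pdk2 (chr11:95026258-95041354, minus strand), known as the most widely expressed kinase of the family, was measured at 86.3, 108, 94.7 and 116 CPM in CD fed and 81.8, 136, 101 and 121 CPM in CD fast livers. The HFD fed livers had 105, 120, 109 and 123 CPM and the HFD fast livers 101, 121, 84.0 and 94.7 CPM. The groups overlapped in every comparison. Fasting gave 0.12 on CD (interval -0.19 to 0.43) and -0.19 on HFD (-0.50 to 0.12), with adjusted p of 0.584 and 0.435, and no alternative made a call for Pdk2.

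Pdk4 (chr6:5483351-5496309, minus strand), the kinase gene best known for its rise in starvation, was the lowest of the 10 in CPM and the most variable within groups relative to its level. It averaged 616 counts per library, and the lowest library held 216, far over the floor of 3. CD fed livers had 21.0, 12.1, 7.02 and 7.61 CPM and CD fast livers 11.7, 16.7, 27.0 and 13.4 CPM. HFD fed livers had 8.56, 4.73, 20.7 and 11.9 CPM and HFD fast livers 9.35, 8.32, 16.1 and 8.42 CPM. The highest CD fed library exceeded 3 of the 4 CD fast libraries, and the highest HFD fed library exceeded all 4 HFD fast libraries. The response to fasting was 0.53 on CD (SE 0.42, 95% interval -0.37 to 1.42, adjusted p = 0.383) and -0.12 on HFD (SE 0.43, interval -1.02 to 0.78, adjusted p = 0.887). These intervals span folds of 0.775 to 2.68 on CD and 0.492 to 1.72 on HFD, so that neither a rise nor a fall of moderate size was resolved with 4 libraries per group. HFD gave -0.06 in fed mice (adjusted p = 0.955) and -0.71 in fasted mice (SE 0.42, adjusted p = 0.311), and no alternative called Pdk4 in any comparison.

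Pdk1 (chr2:71873224-71903858, plus strand) was called lower after fasting on CD, but its groups overlapped and the call was not stable. Its level was 63.4, 136, 123 and 104 CPM in CD fed livers against 67.2, 65.5, 79.7 and 72.0 CPM in CD fast livers. On HFD it was 70.7, 78.3, 72.1 and 50.1 CPM fed and 62.0, 72.2, 62.6 and 43.9 CPM fasted. Of the CD fed libraries, 3 stood above all 13 others, and CD fed replicate 1 lay within the range of the remaining groups. The change on CD was -0.58 on the log2 scale (SE 0.20, 95% interval -1.01 to -0.15, adjusted p = 0.0449). It was lost in 13 of 25 alternatives, including limma-voom (adjusted p = 0.0736), a fit of only the groups compared (0.0601) and 11 fits without 1 library, the weakest without CD fed replicate 2 (0.145). In fed mice the estimate for HFD against CD was of the same size, -0.65 (SE 0.20, adjusted p = 0.0606), and was called in 4 alternatives, by DESeq2 (0.0213), with the replicate block (0.0465), without CD fed replicate 1 (0.00950) and without HFD fast replicate 4 (0.0459). These 2 comparisons share the CD fed libraries, which were also the deepest. On HFD the response to fasting was -0.17 (adjusted p = 0.632), and the difference between diets was 0.41 (interval -0.19 to 1.02, adjusted p = 0.439).

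The phosphatase gene Pdp2 (chr8:104591451-104599026, plus strand), which encodes the PDP isoform typical of liver, was measured at 35.7, 38.8, 38.0 and 39.0 CPM in CD fed and 20.6, 38.9, 49.9 and 51.7 CPM in CD fast livers. It stood at 43.6, 33.6, 52.6 and 33.0 CPM in HFD fed and 40.7, 37.1, 38.0 and 21.6 CPM in HFD fast livers. CD fed libraries were close to each other (SD 1.52 CPM), whereas CD fast libraries ranged on both sides of them (SD 14.3 CPM). No comparison was called, with estimates of 0.09 for fasting on CD (interval -0.43 to 0.61) and -0.24 on HFD (-0.77 to 0.28).

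Summed markers of liver cell types moved with fasting in both directions. The sum of 8 hepatocyte genes was 104759 to 138091 CPM in CD fed and 89551 to 110456 CPM in CD fast livers, with overlap, and 110142 to 138791 CPM in HFD fed and 71709 to 102902 CPM in HFD fast livers, without overlap. Most of this sum was Alb (52371 to 112653 CPM over all libraries), and the next highest gene was Apoa1 (6229 to 12501 CPM). The sum thus describes mainly Alb and not the 8 genes alike. The summed level of 5 sinusoidal endothelial genes was 198 to 223 CPM in CD fed and 147 to 194 CPM in CD fast livers, without overlap, and that of 7 macrophage genes 197 to 377 and 129 to 222 CPM, with overlap. On HFD the endothelial sums (186 to 204 CPM fed, 179 to 236 CPM fasted) and macrophage sums (216 to 294 and 170 to 283 CPM) overlapped. The sum of 5 stellate cell genes had means of 208 CPM fed and 162 CPM fasted on CD and of 236 and 244 CPM on HFD, with overlap on both diets, and that of 5 cholangiocyte genes went from 28.0 to 39.4 CPM on CD and from 30.0 to 34.2 CPM on HFD, also with overlap. The sum of 6 lymphocyte genes overlapped on CD (means of 3.38 and 3.54 CPM), while on HFD it was 1.56 to 2.65 CPM fed and 2.79 to 4.88 CPM fasted, without overlap. No gene of these 6 lists was at or under the floor in all 16 libraries, and the cholangiocyte gene Cftr, at 0.0424 to 0.162 CPM, was near it. The sum of 5 adipocyte genes was 4.04 to 19.1 CPM fed and 72.0 to 264 CPM fasted on CD, and 9.50 to 63.4 CPM fed and 97.9 to 174 CPM fasted on HFD. Nearly all of it was the lipid droplet gene Cidec (3.99 to 263 CPM), while the defining gene Adipoq stayed between 0 and 0.976 CPM. The part of these cell markers and of the greater depth of CD fed libraries in the results was not tested.

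To set the genes beside each other, levels were divided by the length of the principal transcript. On this scale of CPM per kb, Pcx (212), Mpc1 (188) and Mpc2 (128) had the highest means over all 16 libraries, followed by Pdhb (69.8), Pdha1 (50.5) and Pdk2 (47.3). The order was not the same in every group: in HFD fed livers the mean of Mpc1 (169) was above that of Pcx (166), in CD fast livers that of Pdk2 (48.9) was above that of Pdha1 (46.8), and in HFD fast livers Pdhb and Pdha1 were both at 51.1. Over all libraries Pdk1 (14.7), Dlat (11.1), Pdp2 (6.73) and Pdk4 (3.67) were lower. The place of genes with long alternative exons depends on the length used: per kb of all annotated exons Mpc2 fell to 17.9 and Pdhb to 27.4, below Pdha1 at 38.5, while Pcx (181) and Mpc1 (86.4) still led and Pdk4 (3.64) was still last. Among the kinases Pdk2 held 65.2% ± 4.02 of the summed level in fed and 71.8% ± 5.37 in fasted livers on CD, against 75.4% ± 4.06 and 74.9% ± 4.44 on HFD (SD, n = 4). Pdk4 held 5.25% ± 3.65, 7.30% ± 2.73, 4.89% ± 2.83 and 5.23% ± 2.22 in the same order, and Pdk3, at most 0.755 CPM, held at most 0.655% in any library.

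Ratios within a library do not depend on the scaling between libraries, and are given as a description. The ratio of Pdhb to Pdha1 per kb was 1.82 ± 0.128 fed and 1.18 ± 0.0863 fasted on CD, and 1.53 ± 0.108 fed and 1.01 ± 0.143 fasted on HFD. The lowest fed library (1.42) exceeded the highest fasted library (1.30). Pcx to Pdhb, the carboxylase over the E1 beta chain, was 1.65 ± 0.214 and 5.20 ± 1.07 on CD and 2.02 ± 0.199 and 4.86 ± 0.319 on HFD, again without overlap between feeding states. Mpc2 to Mpc1 was 0.809 ± 0.0354 fed and 0.697 ± 0.0590 fasted on CD, and 0.803 ± 0.145 fed and 0.514 ± 0.0397 fasted on HFD, and the 4 HFD fast libraries (0.475 to 0.556) were the lowest of the 16.

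**Figure D3:**
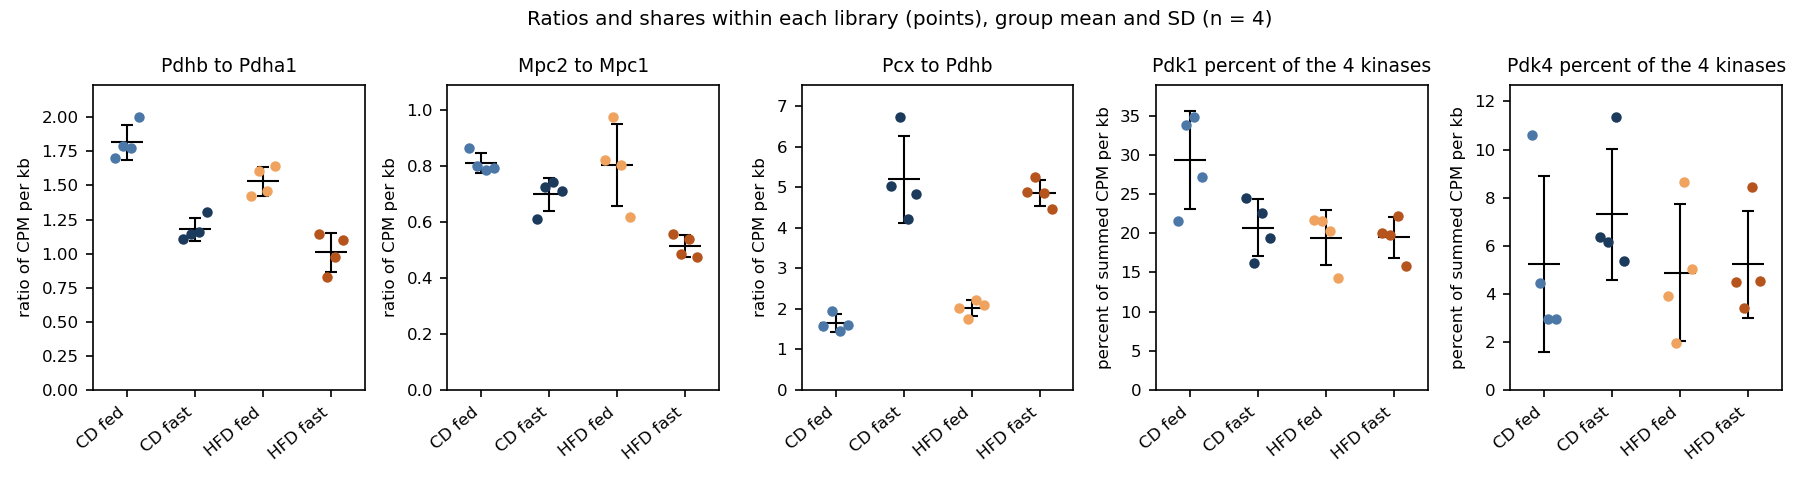
Ratios of levels per kb of principal transcript (first 3 panels) and the percent of the summed level of 4 kinase genes held by Pdk1 and by Pdk4 (last 2 panels), in each library (points) with the group mean and SD (n = 4). Fasted libraries sit below fed libraries for Pdhb to Pdha1 and above them for Pcx to Pdhb on both diets, and the HFD fast libraries have the lowest Mpc2 to Mpc1 ratios. The shares of Pdk4 overlap in all groups.

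Promoter sequences are shown for the 4 genes that were called in both fasting comparisons, Pdhb and Dlat, which fell, and Mpc1 and Pcx, which rose, and for Pdk4, the kinase gene known for its rise in fasting. They are stretches of the 250 bases before the RefSeq start site (GRCm38.p6), without bases inside annotated exons, read 5′ to 3′ on the gene's strand: Pdhb at chr14:8173026-8173242 (minus strand), Dlat at chr9:50659781-50660030 (minus), Mpc1 at chr17:8283537-8283761 (plus), Pcx at chr19:4510222-4510471 (plus) and Pdk4 at chr6:5496310-5496528 (minus). Mpc1 and Pcx each have a further RefSeq start, at 8284454 and 4594319 on the same chromosomes, whose windows are not printed: that of Mpc1 held a nuclear receptor half-site, the only one in the windows of the 10 genes, and a GC box, and that of Pcx none of the motifs searched. Capitals mark matches, on either strand, to 9 short motifs.
Pdhb: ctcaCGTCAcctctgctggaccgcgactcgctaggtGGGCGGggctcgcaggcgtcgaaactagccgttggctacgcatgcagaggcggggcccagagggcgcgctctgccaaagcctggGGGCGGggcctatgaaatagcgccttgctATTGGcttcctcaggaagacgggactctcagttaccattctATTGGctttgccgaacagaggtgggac
Dlat: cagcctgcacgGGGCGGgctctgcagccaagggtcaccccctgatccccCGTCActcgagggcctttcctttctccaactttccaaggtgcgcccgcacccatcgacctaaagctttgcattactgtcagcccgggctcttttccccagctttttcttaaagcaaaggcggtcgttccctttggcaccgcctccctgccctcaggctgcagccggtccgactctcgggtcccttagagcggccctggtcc
Mpc1: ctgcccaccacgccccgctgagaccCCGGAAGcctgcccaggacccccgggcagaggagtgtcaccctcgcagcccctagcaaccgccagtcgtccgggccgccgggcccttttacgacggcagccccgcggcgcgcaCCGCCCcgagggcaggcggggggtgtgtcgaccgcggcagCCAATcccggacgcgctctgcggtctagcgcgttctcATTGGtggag
Pcx: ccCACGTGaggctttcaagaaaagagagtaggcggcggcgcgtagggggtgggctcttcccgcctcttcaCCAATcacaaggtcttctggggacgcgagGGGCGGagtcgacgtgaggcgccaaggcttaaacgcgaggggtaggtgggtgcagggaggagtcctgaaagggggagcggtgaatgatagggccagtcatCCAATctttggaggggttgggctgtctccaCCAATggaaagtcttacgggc
Pdk4: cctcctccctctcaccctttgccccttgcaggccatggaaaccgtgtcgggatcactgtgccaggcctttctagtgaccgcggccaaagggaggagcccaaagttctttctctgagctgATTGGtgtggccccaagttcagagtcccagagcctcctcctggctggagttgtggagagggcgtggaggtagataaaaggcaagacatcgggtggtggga

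The 9 motifs and their shares among 32851 promoter windows of the same length were the GC box GGGCGG (32.7%), the CCAAT box (33.8%), the TATA box TATAAA (12.4%), the E-box CACGTG (6.02%), the ETS motif CCGGAAG (6.91%), the cAMP response half-site TGACG (17.8%), the nuclear receptor half-site AGGTCA (14.0%), the forkhead motif TGTTTAC (3.17%) and the glucocorticoid half-site TGTTCT (16.1%). All 10 genes had at least 1 of 14 windows. A GC box was found in windows of 7 of them and a CCAAT box in 7, a cAMP response half-site in 3 (Dlat, Pdhb and Pdp2) and an E-box in 3 (Pcx, Pdk2 and Pdp2). Counted per window, as the shares are, 8 of the 14 held a GC box and 7 a CCAAT box. The median content of G and C was 52.4% over all windows. In the windows of these genes it was 58.0% to 73.6%, except for 38.4% in 1 window of Pdk1. Enrichment of motifs was not tested. Pdhb and Dlat both held the cAMP response half-site, in its reverse orientation CGTCA in the lines above, at 246 to 242 and 201 to 197 bases before the start. In the windows printed, Mpc1 and Pcx shared a GC box and a CCAAT box, as did Pdhb. The window of Pdk4 held 1 CCAAT box and none of the other 8 motifs, and no window of the 10 genes held the TATA box or the forkhead motif as spelled here. A match is a string of letters and no evidence of binding.

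The remaining genes of the complex and its regulators were not called by edgeR in any of the 5 comparisons. They are Dld (E3) and Pdhx (E3-binding protein), the kinase gene Pdk3, the phosphatase gene Pdp1 and its regulatory subunit Pdpr, and 0, 1, 2, 0 and 0 of these 5 had an unadjusted p under 0.05 in the order used above (fasting on CD and HFD, diet when fed and when fasted, interaction). DESeq2 called 1 for fasting on HFD and limma-voom none. Dld was close to constant, with means of 111, 110, 120 and 112 CPM in CD fed, CD fast, HFD fed and HFD fast livers. Pdhx was at 36.5 ± 4.21 CPM in HFD fed and 29.2 ± 3.30 CPM in HFD fast livers (SD, n = 4), a log2 change of -0.32 (SE 0.11, adjusted p = 0.0725). Pdk3 and Pdp1 were scarce, at 0.383 and 0.727 CPM on average.

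Of 60 further genes tested around the gate, 25 were called with fasting on CD (15 higher and 10 lower, 41.7%, beside 25.2% of all genes) and 11 on HFD (4 higher and 7 lower, 18.3%, beside 8.86%). The 11 on HFD became 4 without HFD fed replicate 1 and 6 without HFD fed replicate 2, and ranged from 4 to 12 over the fits without 1 library. Their median log2 changes were 0.03 and -0.04, and those of all genes tested -0.01 and 0.01. Among the 11 genes that supply pyruvate or exchange it with lactate and alanine, 5 rose and 3 fell on CD (72.7%). Pklr, the liver pyruvate kinase, fell by 2.69 on the log2 scale (SE 0.29, adjusted p = 2.33e-05) and Me1, the cytosolic malic enzyme, fell by 1.75 (SE 0.21, adjusted p = 5.51e-05). Ldha, a subunit of lactate dehydrogenase, rose by 1.05 (SE 0.16, adjusted p = 3.47e-04) and Slc16a7, a monocarboxylate carrier, by 1.10 (SE 0.19, adjusted p = 9.90e-04). The same 4 genes were those called on HFD, with changes of -1.03, -1.07, 0.63 and 0.76 (36.4% of the 11). Of these 11 genes 1 was called on HFD without HFD fed replicate 1 or 2, and 2 without HFD fast replicate 1.

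Of 7 genes for sister complexes of other 2-oxoacids and their kinase and phosphatase, 4 rose on CD (57.1%, beside 25.2% of all genes). On HFD 0 of 7 were called by edgeR, DESeq2 or limma-voom, with 1 at an unadjusted p under 0.05. In that comparison edgeR called 8.86% of all genes. On CD, Ogdh and Dlst of the 2-oxoglutarate dehydrogenase complex rose by 0.61 and 0.67 (adjusted p = 0.00143 and 3.78e-04). Bckdk and Ppm1k, the kinase and the phosphatase of the branched-chain complex, rose by 0.62 and 0.77 (6.36e-04 and 6.56e-04). The genes of that complex itself, Bckdha, Bckdhb and Dbt, were not called (0.14, 0.19 and -0.17, adjusted p = 0.237, 0.135 and 0.311). Bckdk and Ppm1k were also higher on HFD in fed mice, by 0.47 and 0.46 (adjusted p = 0.0132 and 0.0391). They were the 2 of 7 called there (28.6%, beside 7.50% of all genes). Whether the response of these 7 differs between diets was tested gene by gene, and edgeR called 0 of 7 (4 at an unadjusted p under 0.05, as were 3045 of all 15075 genes), DESeq2 1 and limma-voom 0.

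Downstream of the gate, among 10 genes that use acetyl-CoA or oxaloacetate, 4 rose and 3 fell on CD (70.0%, beside 25.2% of all genes). On HFD 3 fell (30.0%, beside 8.86% of all genes). The 7 called on CD became 3 without CD fast replicate 2, in the fit of only the groups compared or with no filter on low counts, and 4 without CD fed replicate 1 or under total count scaling, and the 3 on HFD became 1 without HFD fed replicate 1, 2 or 3. Acly, which cleaves citrate to acetyl-CoA in the cytosol, fell by 2.47 on CD (SE 0.20, adjusted p = 2.12e-06) and by 0.98 on HFD (SE 0.19, adjusted p = 0.00667). Citrate synthase, Cs, fell by 0.50 on CD (adjusted p = 0.00193), and the citrate carrier Slc25a1 fell by 0.67 on CD and by 0.46 on HFD (adjusted p = 8.71e-04 and 0.0244). Pck1, the cytosolic enzyme that takes oxaloacetate on to glucose, was 3383 ± 1066 CPM in CD fed and 5676 ± 1735 CPM in CD fast livers, and 3675 ± 670 CPM in HFD fed and 2028 ± 435 CPM in HFD fast livers (SD, n = 4). Pck1 thus rose on CD (0.75, SE 0.25, adjusted p = 0.0416) and fell on HFD (-0.86, SE 0.25, adjusted p = 0.0467), while Pcx rose on both.

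Of 15 transcription factors and coactivators with a known link to Pdk4, 4 were called with fasting on CD (26.7%), close to the 25.2% of all genes. Ppargc1a (1.24, SE 0.39, adjusted p = 0.0287) and Esrra (0.87, SE 0.16, adjusted p = 0.00117) rose, and Srebf1 (-1.85, SE 0.21, adjusted p = 2.79e-05) and Stat5b (-0.67, SE 0.13, adjusted p = 0.00160) fell. On HFD 3 were called (20%, beside 8.86% of all genes, and 5 without HFD fast replicate 4): Pparg rose by 0.95 (adjusted p = 0.0156), and Srebf1 and Hnf4a fell by 1.06 and 0.55 (adjusted p = 0.00624 and 0.00601). Of genes that supply cofactors of these enzymes, the thiamine transporter Slc19a2 fell on CD by 0.38 (adjusted p = 0.0468). Hlcs, which attaches biotin to pyruvate carboxylase, rose by 0.64 on HFD (SE 0.15, adjusted p = 0.0208).

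**Figure D4:**
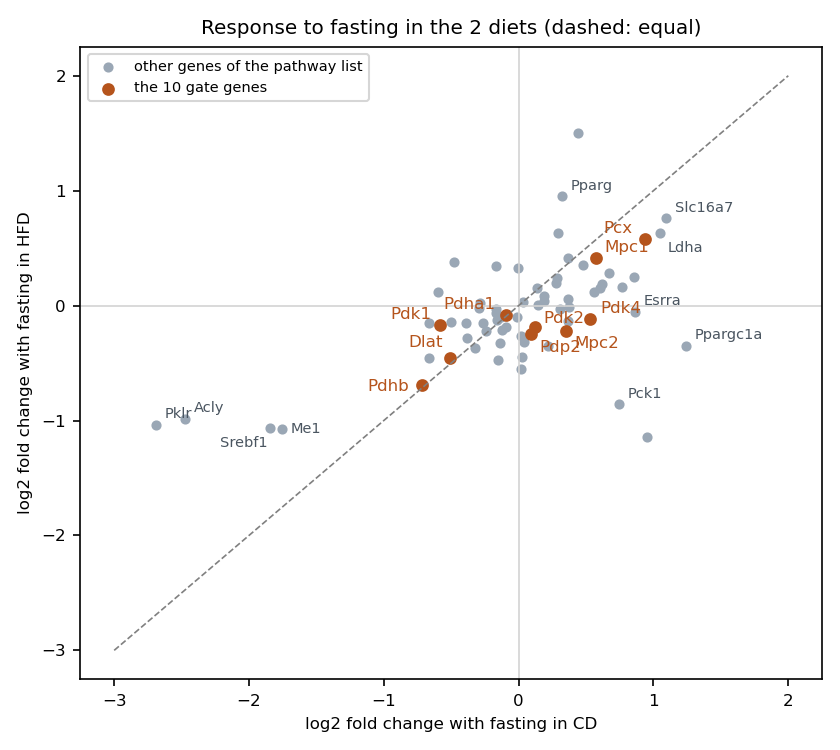
Log2 fold change with fasting on CD (horizontal axis) against that on HFD (vertical axis) for the 10 genes (orange) and 60 other genes of the pathway list (grey), with the line of equal change dashed. Pdhb and Dlat lie near the line, Mpc2 lies at 0.35 and -0.22, and Pklr and Acly lie at -2.69 and -1.03 and at -2.47 and -0.98.

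Diet called 7 of the 60 genes in fed mice (2 higher and 5 lower, 11.7%, beside 7.50% of all genes) and 7 in fasted mice (4 higher and 3 lower, 11.7%, beside 7.70%), and the interaction called 4 (6.67%, beside 2.59%). These counts were not stable. In fed mice 2 were called without CD fed replicate 2, 4 without CD fed replicate 3, HFD fed replicate 3 or HFD fed replicate 4, and 12 with DESeq2. In fasted mice 1 was called in the fit of only the groups compared, 4 without CD fast replicate 2, 12 under total count scaling and 14 with DESeq2. For the interaction 1 was called without CD fast replicate 2, CD fed replicate 2, HFD fast replicate 3 or HFD fed replicate 3, 2 without CD fast replicate 4, CD fed replicate 1, CD fed replicate 3 or HFD fast replicate 4, and 9 with DESeq2. In fed mice HFD lowered Acly by 1.77 on the log2 scale (estimate -1.77, SE 0.19, adjusted p = 1.87e-04), Pklr by 1.16 (-1.16, SE 0.28, adjusted p = 0.0198), Me1 (-0.72, adjusted p = 0.0473), Hlcs (-0.68, adjusted p = 0.0155) and Stat5b (-0.51, adjusted p = 0.0242). In fasted mice HFD livers had more Srebf1 (1.21), Me2 (0.86), Pkm (0.64) and Stat5a (0.54) and less Got1 (-2.01), Pck1 (-1.49) and Btd (-0.52), with adjusted p from 0.00512 to 0.0405. The response to fasting differed between diets for Pklr, Acly, Pck1 and Esrra, and it did not pass the test for Pdhb, Dlat, Mpc1 or Pcx.

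Across the 16 libraries, which share 4 groups and 1 scaling, Pearson's r of log2 CPM is given as a description. Pdhb and Dlat had r = 0.82, Mpc1 and Pcx had r = 0.84, and Pdhb had r = -0.87 with Mpc1 and -0.81 with Pcx. Mpc2 had r between -0.10 and 0.38 with the other 9 genes, and Pdk4 between -0.28 and 0.36. No member reached a called change of at least 1 on the log2 scale, the size set for naming the genes most like it, so those named here were chosen after their values were seen. Of 10994 genes with a mean of at least 100 counts, the nearest to Pcx were Reep6 (r = 0.96), Rapgef1 (0.95) and Acaa1a (0.95), and the nearest to Pdhb were Slc25a44 (0.97), Ctnnb1 (0.96) and Tkfc (0.95). The nearest to Pdk4 was Baiap2l1, at r = 0.78. Pdha1 came closest to Lias (0.88), which makes lipoic acid, and then to Map3k15 (0.87), the gene whose exons it overlaps.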

How the data were processed

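Mouse liver was profiled by poly(A) RNA-seq in 16 samples. According to the labels and the study's methods, the authors prepared libraries with NEBNext Ultra II, sequenced 100-base paired ends, aligned them to Ensembl GRCm38 with TopHat2 2.0.11, set to fr-firststrand libraries and with the annotation of Illumina iGenomes, and counted genes with featureCounts. The counts deposited by the authors are whole and not normalized. The annotation release and the strand setting and handling of read pairs in counting are not given in the sources used here. All 16 columns were used, and 45143 of 46078 genes were matched to a symbol (GENCODE annotation of GRCm38).

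The analysis ran in edgeR 4.0.16 (R 4.3.3): filterByExpr (15075 genes), TMM scaling, 1 coefficient per group over 16 libraries (12 residual degrees of freedom), quasi-likelihood tests, and Benjamini-Hochberg adjustment over all genes tested, with calls at 0.05. Unless another tool is named, every adjusted p comes from edgeR. Log2 CPM used a prior count of 2. Fitted intervals cover 95%, and floors of 3 counts cover counting error only. On simulated counts of 14966 genes for fasting on CD, edgeR recovered 41% of 100 genes changed 1.5-fold and 55% of 100 changed 2-fold, with 2.04% false calls. Only 200 genes were changed there, whereas 25.2% of genes tested were called for fasting on CD in the data. Because the adjustment depends on how many genes change, this recovery does not give the power of that comparison. Alternatives were DESeq2 1.42.0, limma-voom (limma 3.58.1), other scalings, other filters, fits restricted to 2 groups, a replicate block and omission of each library. The genes and lists were chosen with earlier results of these data known. Named were all members, up to 4 called genes per list and comparison by adjusted p, and genes like a member called at a change of at least 2-fold. No member met the last part, so the like genes given were chosen after their values were seen. Slc19a3 was listed but had too few counts to be tested. Not every gene of the pathway list is reported here.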

Additional observations from a re-analysis of the deposited data

Results flagged for a closer look

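Of 40 groups of 4 levels, 3 held a library far from the other 3 by Dixon's criterion at 95%, where chance gives about 1 in 20, and 2 did with unscaled library totals. Mpc1 stood at 232 CPM in CD fast replicate 1, where the others were at 192 to 198 CPM, and at 248 CPM in HFD fast replicate 2, where the others were at 201 to 206 CPM. Without HFD fast replicate 2 the rise of Mpc1 on HFD was no longer called (adjusted p = 0.0503). Pdk4 stood at 16.1 CPM in HFD fast replicate 3, where the others were at 8.32 to 9.35 CPM.

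The response to fasting was called different between diets, by the test of the difference itself, for Mpc2 and 4 genes of the pathway list. These calls were not stable. That of Mpc2 was lost in 9 of the 16 fits without 1 library (adjusted p up to 0.0678 from edgeR). The number of listed genes called also varied between such fits. The difference of log2 fold changes (HFD minus CD) was -0.58 for Mpc2 (adjusted p = 0.0296), 1.65 for Pklr (0.0369), 1.49 for Acly (0.0132), -1.60 for Pck1 (0.0296) and -0.92 for Esrra (0.0401). For Pklr and Acly the fall was smaller on HFD, where mean fed levels were already lower: Pklr was 514 ± 224 CPM in CD fed and 230 ± 46.2 CPM in HFD fed livers, and Acly 704 ± 219 and 206 ± 18.6 CPM (SD, n = 4). The fed libraries of the diets overlapped for Pklr (lowest CD fed 211 CPM, highest HFD fed 277 CPM). Those of Acly did not (507 and 229 CPM). Esrra was 20.4 ± 2.62 CPM in CD fed and 37.2 ± 10.2 CPM in CD fast livers, and 28.9 ± 2.57 and 27.9 ± 3.28 CPM on HFD.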

How the results depend on the processing

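Of the alternatives for single members, 1175 kept direction and side of the threshold, 35 lost a call, 8 gained one and 22 changed sign, the last all for changes not called in either fit. The calls of Pdhb and Dlat on both diets, and of Mpc1, Mpc2 and Pcx on CD, held in every alternative run. For fasting on CD, listed genes called numbered 19 in the fit of only the groups compared and with no filter on low counts, 22 under total count scaling and 18 to 26 without 1 library. For fasting on HFD, leaving out 1 library gave 2 to 5 members and 4 to 12 listed genes called. For HFD in fed mice 1 member was called under total count scaling (Mpc2), DESeq2 and the replicate block (Pdk1), and 0 to 1 without 1 library. Listed genes numbered 12 with DESeq2 and 2 to 8 without 1 library. For HFD in fasted mice 0 members were called in the fit of only the groups compared and 0 to 1 without 1 library, and listed genes numbered 12 under total count scaling, 14 with DESeq2, 1 in the fit of only the groups compared and 4 to 10 without 1 library. For the interaction 0 to 1 members and 1 to 6 listed genes were called without 1 library, and 9 listed genes with DESeq2. The cause of these shifts was not tested, beyond the fewer samples in fits that leave some out.

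Signs changed as follows. Total count scaling moved the median of all genes by 0.159 for HFD in fasted mice, and there gave 0.025 for Pdk2, 0.054 for Pdhb and 0.0077 for Dlat, all below that shift. It gave 0.0046 for Pdk4 in fed mice, and limma-voom gave 0.026 for Pdk4 with fasting on HFD. Without 1 library, Pdk4 ranged from -0.40 to 0.32 for fasting on HFD and from -0.50 to 0.36 for HFD in fed mice, Pdp2 from -0.063 to 0.31 for fasting on CD and from -0.046 to 0.19 for HFD in fed mice, and Mpc1 from -0.0061 to 0.14 for HFD in fasted mice. The interaction ranged from -0.077 to 0.066 for Pdha1, from -0.033 to 0.11 for Pdhb and from -0.018 to 0.13 for Dlat.

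Replicate numbers were not used as pairs in the main fit. Of 24 same-numbered pairs from different groups, 8 had deviations from group means correlated above 0.1 (median r 0.058, range -0.24 to 0.66). Of 72 pairs with different numbers, 18 did (median r 9.86e-05, range -0.37 to 0.39). The best match of 5 of 16 libraries had their own number. Whether some same-numbered libraries share an origin was not tested. With the replicate number as a block 6, 4, 1, 1 and 1 members and 25, 12, 7, 8 and 3 listed genes were called for fasting on CD, fasting on HFD, diet in fed and in fasted mice and the interaction, in this order. The lowest count of a member in any library was 216 (Pdk4), and whether depth limits its calls was not tested. The 95% interval of Pdk4 included a 2-fold rise for fasting on CD. It included a 2-fold fall for fasting on HFD and for HFD in fasted mice. For HFD in fed mice it spanned folds of 0.515 to 1.79 and included neither.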
